A study of Rattus norvegicus with 120 samples.

Results

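Respiratory complex I, NADH:ubiquinone oxidoreductase, was followed through its nuclear subunit genes in kidney and heart of ZSF1 rats. Members were all gene IDs whose symbol is Nduf followed by a, b, c, s or v and a number, which leaves out the assembly factors named Ndufaf. The rule found 39 IDs with 36 symbols among 30560 gene IDs. By the known structure of the enzyme they were 7 core subunits, 9 accessory subunits of the peripheral arm, 18 accessory subunits of the membrane arm, 2 genes that are no structural subunits of complex I (Ndufa4 and Ndufa4l2) and 3 copies or like genes. The first 3 classes are called the 34 structural subunits. No ID carried the symbol Ndufb1 or Ndufb9, so these subunits are not covered.

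Poly-A RNA of both organs of 30-week-old rats was sequenced in 120 libraries, in 12 groups of 10, with 10 rats per condition. In study A, ZSF1 Obese rats on BT2 were set against ZSF1 Obese rats on vehicle, and those vehicle rats against ZSF1 Lean rats on vehicle. In study B, ZSF1 Obese rats on BT2 plus empagliflozin, or on empagliflozin alone, were set against ZSF1 Obese rats on vehicle. All compounds were given in chow, and all rats of both studies, lean ones included, were of the ZSF1 strain. ZSF1 Obese rats lack a working leptin receptor, so that obesity and diabetes here arise from that defect and a hybrid background. BT2 inhibits the kinase BDK, which holds the breakdown of branched-chain amino acids in check, and empagliflozin inhibits the glucose transporter SGLT2 of the proximal tubule. Renal samples bear the label kidney, and the text of the series mentions cortex as well as the whole organ.

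Complex I takes electrons from NADH, passes them along a chain of iron-sulfur clusters to ubiquinone, and uses the energy to pump protons across the inner mitochondrial membrane. The core subunits carry out this chemistry. Those of the peripheral arm are encoded in the nucleus and those of the membrane arm by mitochondrial DNA, while the accessory subunits, all nuclear, surround and stabilise them. Heart muscle and the tubule cells of the kidney, the proximal tubule and thick ascending limb above all, are rich in mitochondria and depend on this enzyme for ATP.

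The promoters of 4 members are shown because these genes were called in several of the comparisons below. RefSeq windows from 250 bases before to 50 after the start of the gene (build GRCr8) were at hand for 34 of the 39 IDs, matched by symbol, or for Ndufa10 by its description. Shown are Ndufa6, which holds letters of 3 searched motifs and was called in 3 kidney comparisons, Ndufs7 and Ndufb8, which led the rise in kidney with the drug combination, and Ndufb10, which was called beside them and holds none. Capitals mark the searched letters on either strand.
Ndufa6 (chr7:115750268-115750567, minus strand): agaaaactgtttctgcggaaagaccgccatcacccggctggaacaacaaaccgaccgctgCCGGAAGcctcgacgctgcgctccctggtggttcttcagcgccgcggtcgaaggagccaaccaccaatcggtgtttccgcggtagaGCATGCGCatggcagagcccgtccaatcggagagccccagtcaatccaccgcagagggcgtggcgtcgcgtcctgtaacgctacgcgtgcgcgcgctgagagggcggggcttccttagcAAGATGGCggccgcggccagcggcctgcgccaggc
Ndufs7 (chr7:10110449-10110748, minus strand): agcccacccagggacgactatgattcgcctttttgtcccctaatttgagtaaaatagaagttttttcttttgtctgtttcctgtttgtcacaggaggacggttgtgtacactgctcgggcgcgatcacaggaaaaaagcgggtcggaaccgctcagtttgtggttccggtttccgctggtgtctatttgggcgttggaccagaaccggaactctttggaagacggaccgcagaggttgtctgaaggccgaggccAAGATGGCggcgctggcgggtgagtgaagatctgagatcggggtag
Ndufb8 (chr1:253362887-253363186, minus strand): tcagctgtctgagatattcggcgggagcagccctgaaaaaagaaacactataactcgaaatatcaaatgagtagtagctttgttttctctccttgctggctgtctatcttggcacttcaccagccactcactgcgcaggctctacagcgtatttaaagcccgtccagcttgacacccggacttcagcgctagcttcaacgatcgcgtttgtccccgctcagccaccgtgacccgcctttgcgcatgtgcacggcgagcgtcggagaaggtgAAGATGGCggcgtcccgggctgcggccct
Ndufb10 (chr10:14255917-14256216, minus strand): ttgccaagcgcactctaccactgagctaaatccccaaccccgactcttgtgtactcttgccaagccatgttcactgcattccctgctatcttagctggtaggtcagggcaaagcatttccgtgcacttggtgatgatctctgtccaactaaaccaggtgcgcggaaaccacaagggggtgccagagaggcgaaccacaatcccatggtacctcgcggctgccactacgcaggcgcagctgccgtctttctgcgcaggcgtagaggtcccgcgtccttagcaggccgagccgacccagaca

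The motif that stood out among the members was that of YY1, searched as AAGATGGC on both strands. It was found in 9 of 34 windows (26.5%), against 3.17% of all 33469 windows of 300 bases in the table. In Ndufs7 and Ndufs4 it began 4 bases after the start, in Ndufa9 10 bases, in Ndufa6 15, in Ndufa3 16, in Ndufb8 21, in Ndufs6 23 and in Ndufa2 26 bases after it, and in Ndufa4l2 1 base before it. These letters hold ATG, so that a match just after the start can also be the first codon. The ETS (GABPA) letters CCGGAAG were found in 7 windows (20.6%, against 8.75% of all), the ERR letters AAGGTCA in 4 (11.8%, against 4.61%), the NRF1 letters GCGCATGC in 2 (5.9%, against 2.47%) and the E-box CACGTG in 2 (5.9%, against 6.42%). In Ndufa11 the matches to NRF1 overlapped each other. Binding of these factors was not measured.

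Kidney libraries held 4598858 to 54856467 counts and heart libraries 6735291 to 23575874, apart from 2 kidney libraries under 1000000 counts (BT2 replicate 2 and study B vehicle replicate 8), which stayed in the tests but are left out of all levels below. The members took 0.358% to 0.762% of counts in kidney libraries (median 0.468%) and 0.677% to 1.37% in heart libraries (median 0.942%). Each organ showed its own markers, with Umod of the thick ascending limb at a median of 2523 CPM in kidney and 0.365 CPM in heart, and cardiac Myh6 at 0.617 CPM in kidney and 10460 CPM in heart. CPM are counts per 1000000 counts, scaled by TMM factors over all libraries. Kidney lean replicate 8 carried muscle transcripts (5 skeletal muscle markers summed to 22710 CPM, against 5.54 to 800.1 CPM in the other lean kidneys), and it had the highest share of member counts of all kidney libraries (0.762%). Kidney BT2 replicate 2, which is also shallow, held 48240 CPM of the same markers, and obese vehicle replicate 4 of study A 1142 CPM with 277.5 CPM of cardiac markers. Kidney combination replicates 1, 4 and 5 held Alb of liver and replicate 7 Actc1 of heart, and 9 heart libraries, 4 of them study B vehicle, held atrial Myl7 above 5 times the heart median. Heart lean replicate 8 carried kidney transcripts, with proximal tubule markers summed to 111.6 CPM, against 1.095 to 2.876 CPM in the other lean hearts.

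Some IDs need caution. The ID called Ndufa10 here is described as that subunit but carries the symbol Ndufa10l1, which it shares with the separate like gene. The ID with the symbol Ndufs6 held a median of 1.49 CPM in lean kidney and 7.47 CPM in lean heart, and RefSeq gives that symbol as an older name of a pseudogene too. An ID without a symbol, described as the Fe-S protein 6 of NADH dehydrogenase, held 54.4 and 241 CPM there, and its values are given beside the members without being counted among them. The second ID of Ndufb2 was at 0 CPM in nearly all libraries and passed the filter on low counts in no comparison, so that 38 of 39 IDs were tested throughout. The main IDs of Ndufb2 and Ndufa7 carry the descriptions of other genes (aarF domain containing kinase 2 and CD320 molecule), and Ndufs5 has a second ID at a lower level. Reads of such copies and overlapping genes may be split between IDs.

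The plate that the labels give moved with the members' summed level. Replicates 1 to 5 were on plate 1 and 6 to 10 on plate 2, and the summed level of the 34 structural subunits had a higher median on plate 2 in all 12 groups. In obese vehicle hearts of study A it was 14670 CPM on plate 2 and 11500 CPM on plate 1. The plate was therefore a term in every test, and values of each plate alone are given where they differ.

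**Figure D1:**
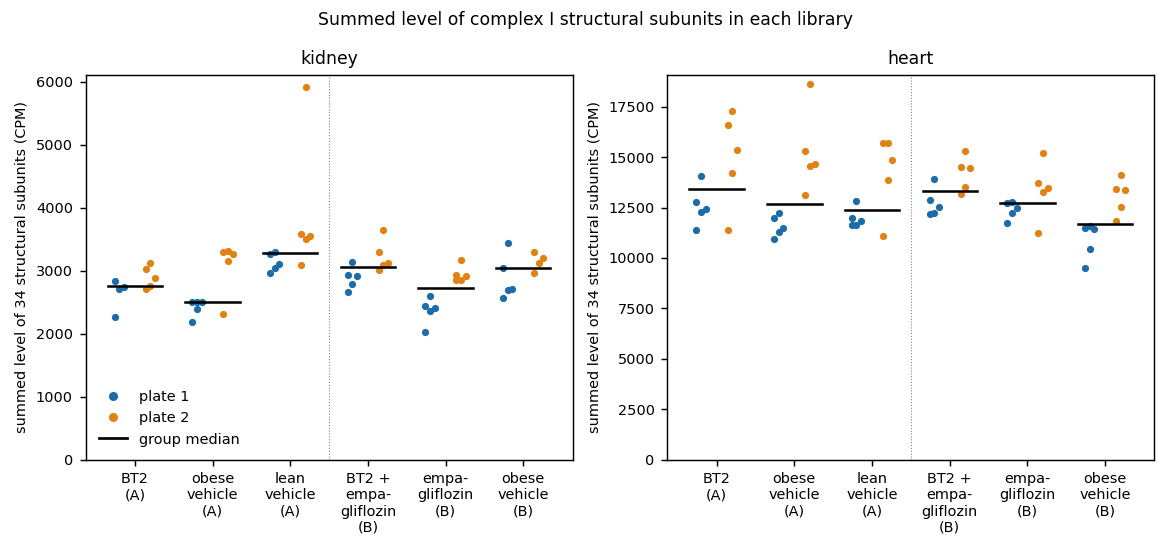
Summed level of the 34 structural subunits in CPM (vertical axis) in each library (points, coloured by plate) of the 6 kidney groups (left) and the 6 heart groups (right), with the group median as a bar. Kidney medians lie between 2507 and 3281 CPM and heart medians between 11700 and 13410 CPM, and the median of plate 2 lies above that of plate 1 in each group.

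The first comparison set the organs of lean rats side by side. All 38 tested members were lower in lean kidney than in lean heart, with a median log2 fold change of -1.83 and a range from -4.08 to -1.03. Of all 13952 genes tested, 39.9% were called lower and 41.1% higher, so that the called genes at large divided about evenly between the organs. Here and below, called means an adjusted p under 0.05 (Benjamini-Hochberg, over all genes past the low-count filter) in edgeR's quasi-likelihood test. Shares of all genes from these fits are given only for these calls on all libraries. Counts by unadjusted p, by side of 0, on a single plate or in other alternatives stand without such a share. The libraries of the organs did not overlap for 34 of the 38. This was not counted over all genes, so it does not set the members apart from genes at large.

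Ndufv1, the subunit that binds NADH and flavin, had the largest fold among the core subunits. It stood at 141, 169.9 and 327 CPM in lean kidney (lowest, median and highest library) and at 847, 1034 and 1693 CPM in lean heart (log2 fold change -2.65 ± 0.16, SE, adjusted p = 2.47e-12 by edgeR). Ndufs1, the large iron-sulfur subunit of the NADH-oxidising module, had the smallest, with 323, 339 and 469.7 CPM in kidney and 342, 1049 and 1273 CPM in heart (log2 fold change -1.28 ± 0.19, SE, adjusted p = 3.63e-06 by edgeR). Its groups overlapped, since the highest kidney library, replicate 8, exceeded the lowest heart library.

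Among the accessory subunits the fold ran from -2.47 for Ndufa5 to -1.03 for Ndufv3, a small subunit beside the NADH-binding site, leaving out the low Ndufs6 ID (-2.55). Ndufv3 stood at 67.4, 75.2 and 93.1 CPM in kidney and at 101, 156 and 232 CPM in heart. The paralog Ndufa4l2, known as a target of hypoxia-inducible factor and low in most tissues, was at 0.225, 0.698 and 1.46 CPM in lean kidney and 6.98, 12.5 and 19.5 CPM in lean heart (log2 fold change -4.08 ± 0.22, SE, adjusted p = 8.23e-13 by edgeR). Ndufa4, once counted with complex I and now placed in complex IV, had a log2 fold change of -1.51. The ratio of kidney to heart was thus not common to all members, and levels of different members are not compared, since no transcript length was at hand.

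The other genes of the respiratory chain lay the same way. The 7 mitochondrially encoded subunits of complex I were all called lower in kidney (median -1.78), and so were 34 of 35 tested nuclear subunits of complexes II to V (median -1.75) and 11 of 14 assembly factors (median -0.85). Fewer mitochondria-rich cells and less RNA per cell cannot be told apart in these bulk samples, here or below.

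In kidney, obesity went with lower complex I transcripts. Of 38 tested members 23 were called lower in obese vehicle than in lean vehicle kidneys of study A and 0 higher, with a median log2 fold change of -0.34 and a range from -0.51 to 0.05. Of all 14230 genes, 15.2% were called lower and 16.9% higher, with a median of -0.02. The summed level of the structural subunits was 2184, 2507 and 3313 CPM in obese vehicle and 2961, 3281 and 5922 CPM in lean vehicle kidneys. The ranges overlapped, and the highest obese library (3313 CPM) exceeded 6 of the 10 lean ones.

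By role, 4 of 7 core subunits, 4 of 9 accessory subunits of the peripheral arm, 5 of 9 membrane arm subunits of the Ndufa, Ndufc and Ndufs5 class and 8 of 9 Ndufb subunits were called lower. Of the core subunits, Ndufs1 was at 204, 271 and 334 CPM in obese vehicle and at 323, 339 and 469.7 CPM in lean vehicle kidneys (log2 fold change -0.34 ± 0.09, SE, adjusted p = 0.00839 by edgeR). The groups overlapped at the top of the obese and the bottom of the lean range. Ndufv1 (-0.39, adjusted p = 0.0195) and its iron-sulfur partner Ndufv2 (-0.45, adjusted p = 0.0186) were called as well in edgeR's test.

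The remaining core subunits had folds of like size that did not pass. Ndufs7, which carries the last cluster before ubiquinone, was at 25.9, 47.8 and 86.7 CPM in obese vehicle and 50.7, 59.1 and 129.8 CPM in lean vehicle kidneys (log2 fold change -0.39 ± 0.19, SE, adjusted p = 0.125 by edgeR). Ndufs3 and Ndufs8 had values of -0.27 and -0.34, with adjusted p of 0.0562 and 0.0557 from edgeR.

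The smallest adjusted p belonged to accessory subunits. Ndufv3 was at 43.5, 53.1 and 79.5 CPM in obese vehicle and 67.4, 75.2 and 93.1 CPM in lean vehicle kidneys (log2 fold change -0.40 ± 0.08, SE, adjusted p = 0.0008 by edgeR), below the lean median in 9 of 10 libraries. Ndufb6, a small subunit of the membrane arm, was at 37.6, 47.4 and 56.0 CPM in obese vehicle and 50.9, 59.9 and 84.4 CPM in lean vehicle kidneys (log2 fold change -0.31 ± 0.07, SE, adjusted p = 0.00154 by edgeR) and lay below the lean median in 10 of 10. Ndufa10, a kinase-like subunit on the matrix side of the membrane arm, did so in 10 of 10 too (log2 fold change -0.34 ± 0.08, SE, adjusted p = 0.00229 by edgeR). Ndufa1 (-0.32), Ndufa11 (-0.48) and Ndufb8 (-0.43) were also called. The described Ndufs6 ID was called at -0.36, while the ID with that symbol was at -0.00 ± 0.28.

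Ndufb7 had the lowest value, -0.51, and did not pass (log2 fold change -0.51 ± 0.21, SE, adjusted p = 0.0714 by edgeR). Ndufa4 of complex IV was called lower (log2 fold change -0.34 ± 0.08, SE, adjusted p = 0.00394 by edgeR), with 164, 226 and 329 CPM in obese vehicle and 215, 302 and 470.1 CPM in lean vehicle kidneys. Ndufa4l2 was the sole member above 0, at 0.05 ± 0.30, with a median of 0.738 CPM in obese vehicle and 0.698 CPM in lean vehicle kidneys.

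**Figure D2:**
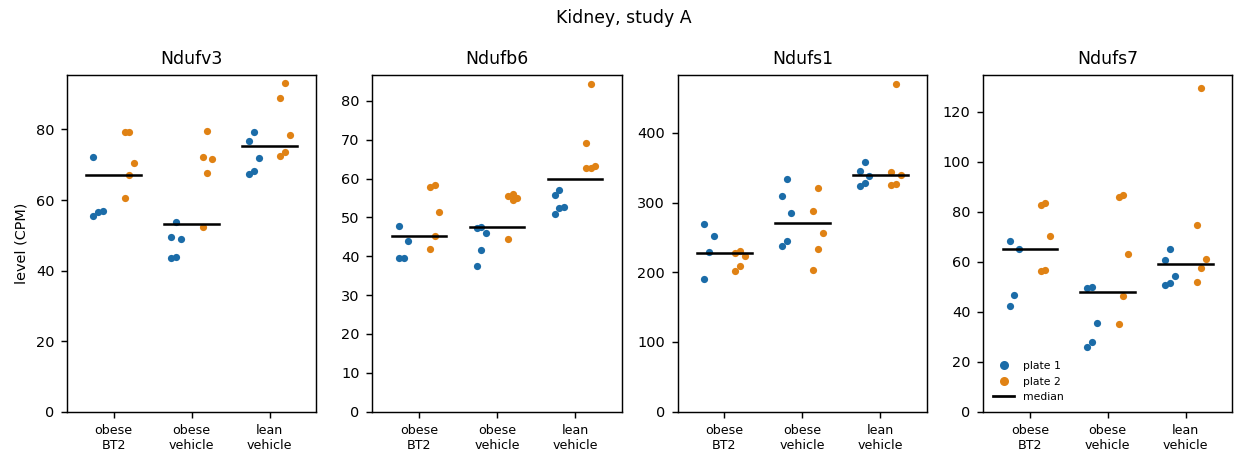
Level in CPM (vertical axis) of Ndufv3, Ndufb6, Ndufs1 and Ndufs7 in each kidney library of study A (points, coloured by plate) for obese BT2, obese vehicle and lean vehicle rats, with medians as bars. Ndufs1 has a median of 271 CPM in obese vehicle and 339 CPM in lean vehicle kidneys, and lean replicate 8 is the high point of Ndufs1 and Ndufs7.

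Genes around complex I were lower too. Called lower were 4 of 7 mitochondrially encoded subunits (median -0.33), 2 of 14 assembly factors (median -0.17), the acyl carrier protein Ndufab1, which the LYR subunits of the enzyme hold (-0.36), 21 of 33 nuclear subunits of complexes II to V (median -0.31) and 4 of 11 genes of mitochondrial content and its regulators (median -0.15). Cell type markers moved too. The 6 proximal tubule markers summed to 2650, 4130 and 5049 CPM in obese vehicle and 2966, 5948 and 6865 CPM in lean vehicle kidneys, with 3 of 6 called lower. The 4 immune markers summed to 45.1, 65.0 and 89.2 CPM in obese vehicle and 23.7, 26.4 and 42.6 CPM in lean vehicle kidneys, with 4 of 4 called higher. Their part in the result was not tested.

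The plates differed in what they gave. On plate 1 the summed structural subunits had a median of 2498 CPM in obese vehicle and 3102 CPM in lean vehicle kidneys and 27 members were called lower, while on plate 2 the medians were 3260 CPM in obese vehicle and 3551 CPM in lean vehicle kidneys and 0 were called, at a median log2 fold change of -0.31. The lean kidneys of plate 2 included replicate 8, at 5922 CPM the highest of all kidney libraries. Plate 2 was not fitted without it, so its part in the -0.31 was not tested. Calls over all genes on a single plate are not given beside these counts. Without a plate term 8 were called lower, and without lean replicate 8 and its muscle transcripts 21, at a median of -0.25.

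BT2 alone left no member past the threshold in obese kidney by edgeR. In study A, 0 of 38 were called in obese BT2 against obese vehicle kidneys, 3 had an unadjusted p under 0.05, and the DESeq2 Wald test called 2 lower. The median log2 fold change was 0.03, with 26 above 0, and of all 14311 genes 2.26% were called higher and 3.41% lower. The summed structural subunits were at 2270, 2765 and 3119 CPM in obese BT2 and 2184, 2507 and 3313 CPM in obese vehicle kidneys, which is the group shared with the lean comparison above. Without BT2 replicate 2, 0 were called as well, at a median of 0.04.

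The core subunits Ndufs7 and Ndufs1 lay on opposite sides of 0. Ndufs7 was at 42.2, 64.9 and 83.5 CPM in obese BT2 and 25.9, 47.8 and 86.7 CPM in obese vehicle kidneys (log2 fold change 0.34 ± 0.17, SE, adjusted p = 0.227 by edgeR). Ndufs1 was at 189.7, 228 and 269 CPM in obese BT2 and 204, 271 and 334 CPM in obese vehicle kidneys (log2 fold change -0.27 ± 0.09, SE, adjusted p = 0.0936 by edgeR), and Ndufa4 had the lowest fold (-0.28 ± 0.12). None of these passed, and the groups overlapped for each.

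In study B, kidneys on empagliflozin alone had the lowest complex I level of the 3 groups. With empagliflozin alone, 36 of 38 members lay below 0 against obese vehicle kidneys, at a median log2 fold change of -0.22, and 28 had an unadjusted p under 0.05. How many of all genes did so is not given here, so these counts are not told apart from a general shift. After adjustment 2 were called lower by edgeR, 11 by DESeq2, and 0 higher by either. Of all 14059 genes 0.59% were called lower and 0.469% higher. The summed structural subunits were at 2021, 2727 and 3167 CPM in empagliflozin and 2563, 3047 and 3446 CPM in obese vehicle kidneys, so that the ranges overlapped widely.

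The called members were Ndufa6 and Ndufb10. Ndufa6, an LYR protein that holds the acyl carrier protein on the peripheral arm, was at 55.5, 74.2 and 93.9 CPM in empagliflozin and 70.8, 95.0 and 109 CPM in obese vehicle kidneys (log2 fold change -0.28 ± 0.07, SE, adjusted p = 0.0435 by edgeR), below the vehicle median in 10 of 10 libraries. Ndufb10, a subunit on the intermembrane side of the membrane arm, was at 47.9, 61.7 and 82.0 CPM in empagliflozin and 62.5, 74.8 and 101 CPM in obese vehicle kidneys (log2 fold change -0.31 ± 0.08, SE, adjusted p = 0.0493 by edgeR), below the vehicle median in 8 of 10. Neither was called on plate 1 or plate 2 alone, where 0 members passed, at medians of -0.31 and -0.12.

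Of the core subunits, Ndufs3 (-0.28, adjusted p = 0.096), Ndufs7 (-0.24), Ndufs8 (-0.24), Ndufv1 (-0.21) and Ndufv2 (-0.22) lay below 0 without passing edgeR's test. Ndufs1 had a value of 0.01 ± 0.08. Ndufs1 was at 127, 157 and 179 CPM in empagliflozin and 121, 157 and 201 CPM in obese vehicle kidneys. The lowest fold, -0.55 ± 0.35, belonged to the low ID with the symbol Ndufs6, while the described ID had -0.18 ± 0.08.

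With BT2 added to empagliflozin, about as many members passed the test as did not, and those that passed were higher. Against empagliflozin alone, 20 of 38 were called higher and 0 lower in combination kidneys, 38 of 38 lay above 0, and the median log2 fold change was 0.19. Of all 13992 genes 17.0% were called higher and 14.8% lower, with a median of 0.01. Of the core subunits 5 of 7 were called, of the peripheral arm accessory subunits 3 of 9, of the Ndufa, Ndufc and Ndufs5 class 5 of 9 and of the Ndufb subunits 7 of 9. The summed structural subunits were at 2657, 3055 and 3642 CPM in combination and 2021, 2727 and 3167 CPM in empagliflozin kidneys, and with CPM of library totals the medians lay closer, at 4292 CPM in combination and 4265 CPM in empagliflozin kidneys.

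Ndufs7 had the largest fold. It was at 91.7, 105 and 139 CPM in combination and 50.5, 75.0 and 108 CPM in empagliflozin kidneys (log2 fold change 0.58 ± 0.08, SE, adjusted p = 1.16e-05 by edgeR). Ndufv1 was at 178, 206 and 249 CPM in combination and 123, 156 and 198 CPM in empagliflozin kidneys (log2 fold change 0.43 ± 0.06, SE, adjusted p = 3.64e-05 by edgeR). For both, 10 of 10 combination libraries exceeded the empagliflozin median, though the ranges overlapped.

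Ndufb8, a membrane arm subunit often used as an indicator of assembled complex I, had the smallest adjusted p. It was at 87.1, 97.8 and 142 CPM in combination and 58.6, 82.1 and 102 CPM in empagliflozin kidneys (log2 fold change 0.42 ± 0.05, SE, adjusted p = 7.2e-06 by edgeR). Ndufb6 (0.32), Ndufb7 (0.39) and Ndufb10 (0.35) followed, each above the empagliflozin median in 9 or 10 of 10 libraries. Ndufs3 (0.30), Ndufs8 (0.24) and Ndufv2 (0.25) of the core and Ndufa6 (0.26) of the peripheral arm were called as well, and so was the described Ndufs6 ID at 0.35.

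Again Ndufs1 had a small value, 0.10 ± 0.07, and was not called. It was at 141, 162 and 196 CPM in combination and 127, 157 and 179 CPM in empagliflozin kidneys. Ndufa4 had the lowest value, 0.02 ± 0.06, and Ndufa4l2 was at 0.15 ± 0.31.

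**Figure D3:**
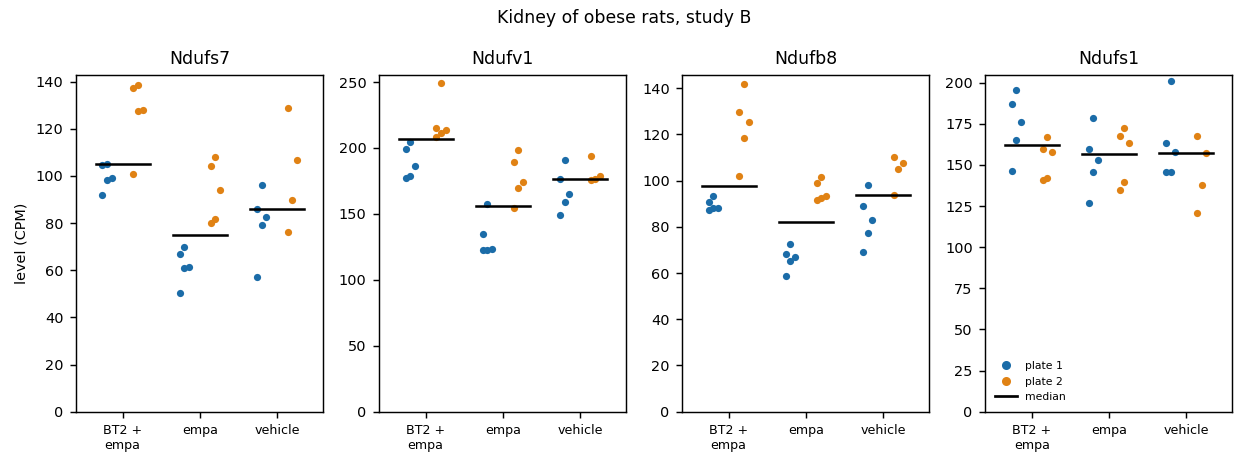
Level in CPM (vertical axis) of Ndufs7, Ndufv1, Ndufb8 and Ndufs1 in each kidney library of study B (points, coloured by plate) for BT2 plus empagliflozin, empagliflozin and obese vehicle, with medians as bars. Ndufs7 has medians of 105.0, 75.0 and 86.0 CPM in these groups, while those of Ndufs1 lie between 157 and 162 CPM.

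Against obese vehicle, which both drug groups share as their control, the combination called 3 of 38 members higher and 0 lower, at a median log2 fold change of 0.01. Of all 14037 genes 17.3% were called higher and 14.8% lower, so that the members' count was below the share of genes at large. Ndufv1 was at 178, 206 and 249 CPM in combination and 149, 176 and 194 CPM in obese vehicle kidneys (log2 fold change 0.23 ± 0.06, SE, adjusted p = 0.00443 by edgeR). Ndufs7 (log2 fold change 0.34 ± 0.09, SE, adjusted p = 0.00627 by edgeR) and Ndufb8 (log2 fold change 0.19 ± 0.07, SE, adjusted p = 0.0323 by edgeR) were the others called. For Ndufv1 and Ndufs7, 10 of 10 combination libraries lay above the vehicle median, and for Ndufb8 5 of 10 did. On plate 1 alone 0 members were called higher and on plate 2 alone 1, and 0 with all groups in a single fit, while DESeq2 called 1 lower beside 3 higher. Summed over the structural subunits, medians were 3055 CPM in combination and 3047 CPM in obese vehicle kidneys, and with CPM of library totals 4292 CPM in combination and 4514 CPM in obese vehicle kidneys.

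The mitochondrially encoded subunits had larger medians than the nuclear ones in these contrasts. In combination kidneys 5 of 7 mitochondrially encoded complex I subunits were called higher than in obese vehicle (median 0.555) and 4 of 7 higher than in empagliflozin kidneys (median 0.59). Their summed level was 19550, 27630 and 68870 CPM in combination, 13860, 18500 and 21750 CPM in empagliflozin and 18460, 20260 and 25340 CPM in obese vehicle kidneys. Libraries were made from poly-A RNA, in which most mitochondrial messenger RNAs, though not all, are caught by their own short tails. Of complexes II to V, 19 of 33 nuclear subunits were higher in combination than in empagliflozin kidneys (median 0.18), and of the assembly factors 2 of 14 (median 0.08).

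Other cell types moved in the same contrast. The immune markers summed to 27.0, 32.4 and 45.2 CPM in combination and 42.7, 67.9 and 169 CPM in empagliflozin kidneys, with 4 of 4 called lower, and the fibroblast markers to 99.2, 126 and 161 CPM in combination and 137, 226 and 305 CPM in empagliflozin kidneys, with 3 of 3 called lower. The proximal tubule markers summed to 1611, 1836 and 2368 CPM in combination and 1632, 2309 and 2753 CPM in empagliflozin kidneys, with 1 called higher and 3 lower. Their part in the result was not tested. On plate 1 alone 17 members were called higher than with empagliflozin and on plate 2 alone 5, and without the 4 combination libraries that carry liver or heart transcripts 8 were, at a median of 0.12.

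In heart, few differences in complex I transcripts between obese and lean rats passed the test. A single member, Ndufa3, was called higher in obese vehicle than in lean vehicle hearts and 0 lower, at a median log2 fold change of 0.06 over 38, beside 3.32% of all 12694 genes called higher and 2.03% lower. Ndufa3, a small membrane arm subunit, was at 243, 292 and 622 CPM in obese vehicle and 220.1, 237 and 335 CPM in lean vehicle hearts (log2 fold change 0.39 ± 0.12, SE, adjusted p = 0.0494 by edgeR), above the lean median in 10 of 10. It was not called with DESeq2 size factors, on either plate alone, or without obese vehicle replicate 10. That library carries atrial transcripts and was the highest for Ndufa3. The summed structural subunits were at 10960, 12670 and 18640 CPM in obese vehicle and 11100, 12390 and 15690 CPM in lean vehicle hearts, an order that turned round with CPM of library totals (medians of 8738 CPM in obese vehicle and 9281 CPM in lean vehicle hearts).

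At the same time 2 of 7 mitochondrially encoded subunits were called higher in obese vehicle hearts (median 0.41), with a summed level of 114300, 158300 and 189300 CPM in obese vehicle and 77310, 115500 and 150000 CPM in lean vehicle hearts. Of the nuclear core subunits Ndufv1 had the highest value, 0.15, and none was called.

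BT2 called 0 of 38 members in obese hearts by edgeR and by DESeq2, with 1 unadjusted p under 0.05 in edgeR and a median log2 fold change of 0.06. Of all 12545 genes only 0.0239% were called higher and 0.0319% lower. Ndufs1 was at 433, 859 and 1114 CPM in obese BT2 and 491, 889 and 1122 CPM in obese vehicle hearts (log2 fold change -0.09 ± 0.13, SE, adjusted p = 0.963 by edgeR), and Ndufv1 at 915, 1259 and 1560 CPM in obese BT2 and 886, 1281 and 1507 CPM in obese vehicle hearts (log2 fold change 0.03 ± 0.07, SE, adjusted p = 0.978 by edgeR). Summed over the structural subunits, medians were 13410 CPM in obese BT2 and 12670 CPM in obese vehicle hearts, an order that turned round with CPM of library totals (8500 CPM in obese BT2 and 8738 CPM in obese vehicle hearts).

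Empagliflozin also called 0 of 38 in obese hearts, by edgeR and by DESeq2, but 34 lay above 0 and 14 had an unadjusted p under 0.05, at a median log2 fold change of 0.14. Of all 12167 genes 0.0822% were called higher and 0.0247% lower. Ndufs8 (0.28 ± 0.09, adjusted p = 0.276) and Ndufs7 (0.30 ± 0.11, adjusted p = 0.38) had the largest values of the core in edgeR. The plates differed, with 22 members higher and 1 lower on plate 1 alone (median 0.31) and 0 called on plate 2 alone (median -0.03). The share of all genes called on plate 1 alone is not given here, so the 22 are not set against genes at large.

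The combination gave the clearest rise in heart. Of 38 members 12 were called higher and 0 lower against obese vehicle, 35 lay above 0, and the median log2 fold change was 0.22, where 3.58% of all 12117 genes were called higher and 1.55% lower. The called members were 2 core subunits, 3 of the peripheral arm, 1 of the Ndufa, Ndufc and Ndufs5 class and 6 of 9 Ndufb subunits. The summed structural subunits were at 12180, 13330 and 15320 CPM in combination and 9509, 11700 and 14100 CPM in obese vehicle hearts.

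Ndufb3, a subunit of the far end of the membrane arm, led. It was at 376, 436 and 475 CPM in combination and 272, 358 and 427 CPM in obese vehicle hearts (log2 fold change 0.34 ± 0.06, SE, adjusted p = 0.00128 by edgeR), above the vehicle median in 10 of 10. Ndufb8 was at 338, 433 and 538 CPM in combination and 251, 374 and 452 CPM in obese vehicle hearts (log2 fold change 0.29 ± 0.06, SE, adjusted p = 0.0038 by edgeR), above it in 8 of 10. Ndufb5 (0.29), Ndufb11 (0.28) and Ndufb10 (0.23) of the same arm and Ndufa2 (0.29) of the peripheral arm were also called.

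Of the core, Ndufs3 was at 395, 500.4 and 555 CPM in combination and 320.2, 406 and 528 CPM in obese vehicle hearts (log2 fold change 0.25 ± 0.06, SE, adjusted p = 0.0105 by edgeR), and Ndufv2 was called at 0.22 ± 0.06. Ndufs7 (0.21 ± 0.12) and Ndufv1 (0.14 ± 0.08), the leaders in kidney, were not called here, and Ndufs1 was at -0.00 ± 0.10. Ndufa10l1, the like gene of Ndufa10, had the lowest value (-0.17). Against empagliflozin alone the combination called 0 of 38 by edgeR and 1 higher by DESeq2, with 6 unadjusted p under 0.05 in edgeR, a median of 0.07, and 0.0249% of all 12049 genes higher and 0.0% lower.

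The mitochondrially encoded subunits were not called against vehicle in heart, with 6 of 7 below 0 and a median of -0.21, while 17 of 35 nuclear subunits of complexes II to V were called higher (median 0.24). Markers of muscle moved with the nuclear subunits. The 5 cardiac muscle markers summed to 47370, 54570 and 61770 CPM in combination and 42930, 46420 and 55590 CPM in obese vehicle hearts, with 3 of 5 called higher. The atrial markers summed to 209, 475 and 1813 CPM in combination and 21.6, 625 and 6679 CPM in obese vehicle hearts, with none of 3 called. Their part in the result was not tested. Without the 7 study B libraries of these groups that carry atrial or skeletal muscle transcripts 0 members were called, at a median of 0.14, and on plate 1 alone 1 was called higher and on plate 2 alone 0 (medians 0.27 and 0.17).

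**Figure D4:**
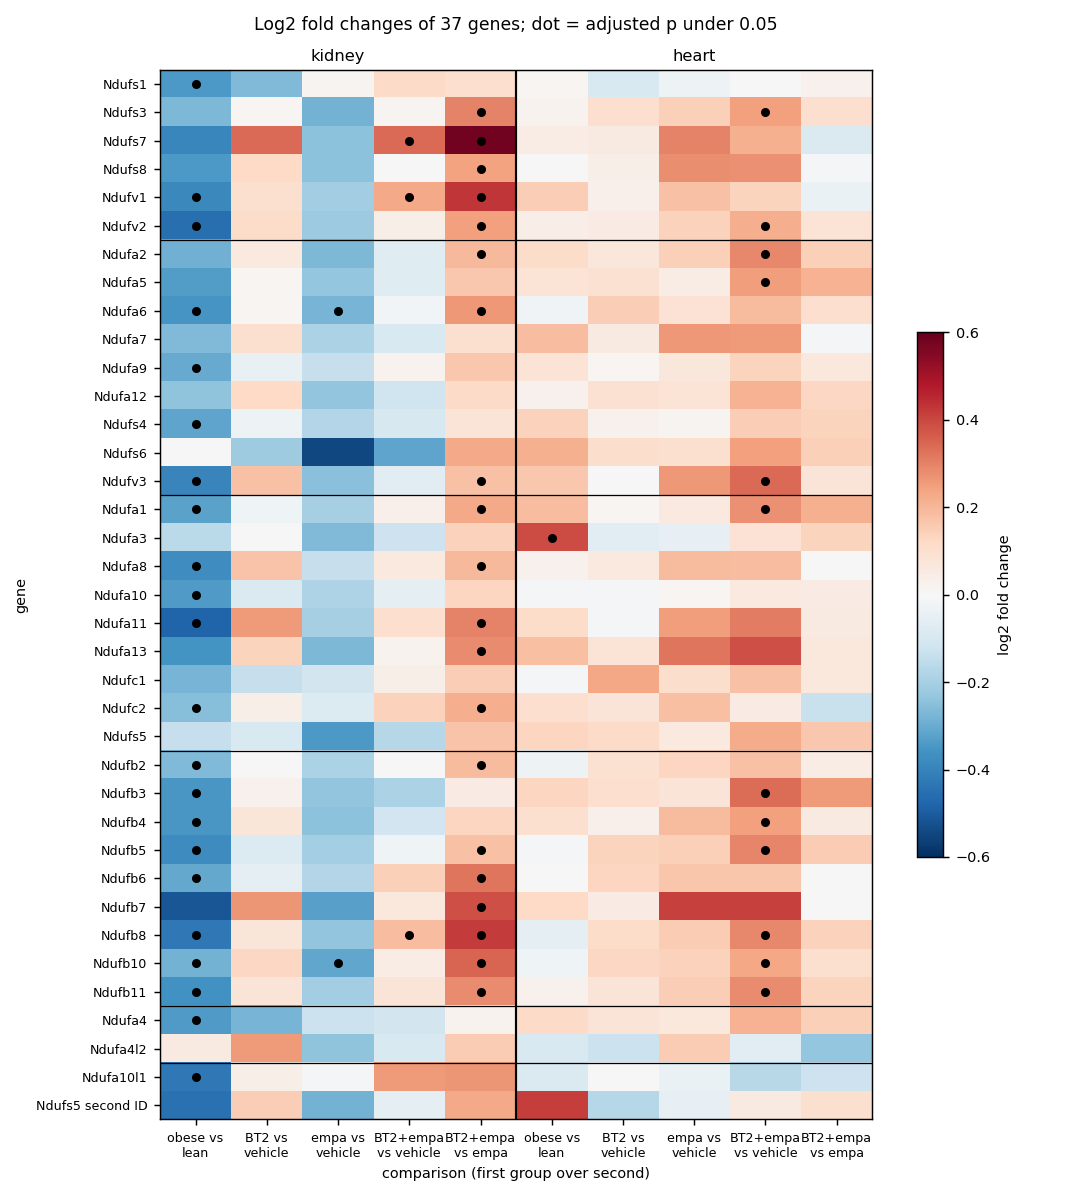
Log2 fold changes (colour, first group over second) of 37 tested genes (rows, grouped by role) in 5 comparisons of kidney and 5 of heart (columns), with dots where edgeR's adjusted p was under 0.05. The kidney column of obese against lean is blue with 22 dots, the kidney column of the combination against empagliflozin is red with 20, and the heart column of the combination against vehicle has 12.

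Whether an effect differed between the organs was tested as an interaction, kidney effect minus heart effect. For obesity 13 of 38 members had a lower effect in kidney and 0 a higher one, at a median of -0.40, beside 6.38% of all 14926 genes lower and 7.32% higher. They were led by Ndufa3 (difference of log2 fold changes -0.57 ± 0.15, SE, adjusted p = 0.00755 by edgeR), Ndufv3 (-0.59) and Ndufa4 (-0.46), and Ndufv1 (-0.54) and Ndufv2 (-0.50) of the core were among them. Without kidney lean replicate 8, 5 were called at a median of -0.26. On plate 2 alone, which includes that library, 0 were, at -0.43.

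For empagliflozin a minority of members differed between the organs. The effect was lower in kidney for 9 of 38 members and higher for 0, at a median of -0.36, where 0.944% of all 14732 genes were lower and 0.258% higher. Ndufs8 (difference of log2 fold changes -0.53 ± 0.12, SE, adjusted p = 0.0214 by edgeR) and Ndufs3 (difference of log2 fold changes -0.44 ± 0.11, SE, adjusted p = 0.0444 by edgeR) were the core subunits called, and Ndufb4 (-0.45), Ndufa13 (-0.60), Ndufb10 (-0.46), Ndufb8 (-0.40) and Ndufb7 (-0.74) were called beside them. For Ndufs1 the difference between the organs was 0.05 ± 0.16. On plate 1 alone 25 were called lower (median -0.62), and on plate 2 alone 0 (median -0.11), as with no plate term. These plate counts, too, stand without the share of all genes.

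For the combination 6 of 38 had a lower effect in kidney and 0 a higher one, at a median of -0.21, beside 7.19% of all 14692 genes lower and 6.89% higher. Ndufb3 had the smallest adjusted p (difference of log2 fold changes -0.53 ± 0.10, SE, adjusted p = 0.000243 by edgeR), and Ndufb4, Ndufb5, Ndufa2, Ndufa5 and Ndufa12 were the others. Of the mitochondrially encoded subunits 4 of 7 differed the opposite way, with a higher effect in kidney (median 0.76). For BT2 alone 0 of 38 differed by edgeR and by DESeq2, with 2 unadjusted p under 0.05 in edgeR, a median of -0.03, and 0.26% of all 14975 genes higher and 0.227% lower. Kidneys and hearts were treated as unpaired in these tests.

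**Figure D5:**
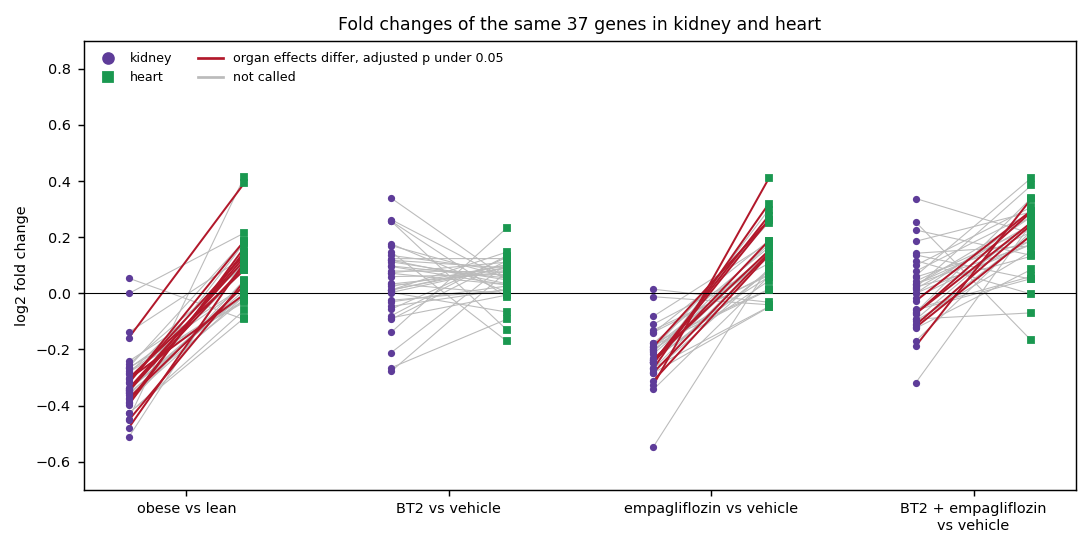
Log2 fold changes (vertical axis) of the same 37 genes in kidney (left, circles) and heart (right, squares) for 4 comparisons, joined by a line per gene that is red where the organ effects differed at an adjusted p under 0.05. Red lines number 13 for obesity, 0 for BT2, 9 for empagliflozin and 6 for the combination, and all of them run upward to heart.

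The authors' deposited table of DESeq2 results covers 8 of these comparisons. In kidney, the authors' deposited table called 22 of 38 members lower and 0 higher with obesity, 1 lower with BT2, 13 lower with empagliflozin and 3 higher with the combination. Of all genes with an adjusted p there, 2823 of 17657 were lower with obesity and 967 of 15631 lower with BT2. With empagliflozin 319 of 13346 were lower, and with the combination 2439 of 17310 were higher. For BT2 and the combination the members' counts were below those shares. In heart, the authors' deposited table called 1 member higher with obesity, 0 with BT2 or empagliflozin and 19 higher with the combination. Among all heart genes with an adjusted p there, 531 of 15551 were higher with obesity and 597 of 11281 with the combination. With BT2 27 were higher and 55 lower of 16767, and with empagliflozin 57 higher and 16 lower of 8717. The medians of log2 fold change in the authors' deposited table were -0.23 for obesity and -0.16 for empagliflozin in kidney, and 0.16 for the combination in heart. The authors' fits left out 3 kidney libraries, among them lean replicate 8 with its muscle transcripts. For BT2 in heart their median was 0.0043, smaller than the one given above by edgeR. How their fold changes were estimated is not given in the sources used here, so the sizes are not compared.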

How the data were processed

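The authors deposited estimated counts per gene and sequencing run for kidney and heart. Per the labels' protocols, libraries were stranded poly-A libraries from frozen tissue, and per the submitters' processing notes STAR 2.7.3a, Salmon 1.5.2, DESeq2 1.34.0 and the build mRatBN7.2 were used; what each tool did is not given in the sources used here. Comparison tables deposited by the authors hold log2 fold changes and p-values from the authors' own fits, which enter only the sentences that name them. From the deposited counts, 163 columns were matched to the 120 libraries, 43 of which had a repeat run; runs were summed and rounded to whole numbers, since 6.85% of values were not whole. Another 82 columns matched no sample here and were not used.

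Each comparison was fitted on its own libraries over all genes with edgeR 4.0.16 (quasi-likelihood F test, filterByExpr, TMM) in R 4.3.3 with limma 3.58.1, with the plate as a covariate, and p-values were Benjamini-Hochberg adjusted over all tested genes with a threshold of 0.05. SE was the absolute log2 fold change over the square root of F. Levels are CPM with TMM factors over all 120 libraries. Summaries and figures were made in Python 3.11.15. The fitting was also run on simulated counts without a plate effect, with folds larger than those of most members within an organ. That run therefore does not show how well small folds are found in these data. DESeq2 1.42.0 and the other alternatives are in the closing section. Deviations of same-numbered libraries from the means of their group and plate had median correlations between -0.114 and 0.122 over the comparisons. Single pairs spread wider, from -0.582 to 0.445 in heart obesity. For empagliflozin against vehicle in heart, 6 of 10 pairs lay above 0.1, with a median of 0.122. No pairing entered the tests. Replicates are separate rats by the series text; which kidney and heart came from the same rat was not used.

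The text names members by rule, from the core subunits, Ndufa4 and Ndufa4l2, up to 6 called members with the smallest adjusted p, and those with the highest and lowest fold, and leaves out many that did not pass; a core subunit that counts among the members is not reported singly here. The members, gene lists and tests were chosen with earlier results of these data known. Intervals for single counts are not given, and depth limits only the members at a few CPM.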

Additional observations from a re-analysis of the deposited data

Results flagged for a closer look

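Within groups, 192 sets of values were searched for a single library far from the others, and 19 were found, where chance gives about 1 in 20. Kidney lean replicate 8, the library with muscle transcripts, was the high point in 11 of them. Its summed structural subunits stood at 5922 CPM, against 2961 to 3578 CPM in the other lean kidneys. Of the core subunits it held 469.7 CPM of Ndufs1, 219.4 CPM of Ndufs3, 129.8 CPM of Ndufs7, 327.3 CPM of Ndufv1 and 375.7 CPM of Ndufv2. Of the accessory subunits it held 197.1 CPM of Ndufa6, 248.3 CPM of Ndufb8, 90.03 CPM of Ndufb10, 86.1 CPM of Ndufa3 and 151.8 CPM of Ndufb3.

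Heart obese vehicle replicate 10 of study A, which carries atrial transcripts, was highest in its group for Ndufb10 (424.3 CPM), Ndufa3 (621.7 CPM) and Ndufb3 (629.9 CPM). Kidney combination replicate 7, which carries Actc1 of heart, was highest for Ndufv1 (249.4 CPM) and Ndufb10 (105.2 CPM). Kidney BT2 replicate 3 was lowest for the summed subunits (2270 CPM, against 2702 to 3119 CPM in the others) and for Ndufv2 (109.6 CPM). Ndufb3 was lowest in kidney empagliflozin replicate 1 (45.53 CPM). That library also had the lowest summed structural subunits (2021 CPM) and proximal tubule markers (1632 CPM) of its group. Its immune markers were the highest of the group (169 CPM). What set these libraries apart was not tested.

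Effects that differed between kidney and heart by edgeR's interaction test were found for 13 members with obesity, 9 with empagliflozin and 6 with the combination, each lower in kidney.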

How the results depend on the processing

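The members' median kept its sign in every alternative for kidney obesity, kidney empagliflozin, kidney combination against empagliflozin, heart combination against vehicle and the organ differences of obesity, empagliflozin and the combination, while that of kidney combination against vehicle lay between -0.06 and 0.03. No called result changed sign. Counts of called members moved as follows, beside the counts in the report. The share of all genes called in each alternative is not given. With DESeq2, kidney BT2 had 2 lower, kidney empagliflozin 11 lower, kidney combination against vehicle 1 lower, heart combination against empagliflozin 1 higher and the organ difference for empagliflozin 19 lower. With DESeq2 size factors, kidney combination against vehicle had 1 lower and heart obesity 0 higher. With all groups in a single fit, kidney BT2 had 1 lower, kidney empagliflozin 0 lower, kidney combination 0 higher against vehicle and 13 against empagliflozin, heart combination 3 higher, and the organ differences 22 lower for obesity, 0 for empagliflozin and 2 for the combination. With no low-count filter, kidney empagliflozin had 0 lower, heart obesity 0 higher and the organ difference for obesity 7 lower.

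With no plate term, kidney obesity had 8 lower, kidney empagliflozin 0 lower, heart obesity 0 higher, heart combination 1 higher, and the organ differences 2 lower for obesity, 0 for empagliflozin and 1 for the combination. Plate 1 alone gave kidney empagliflozin 0 lower, kidney combination against vehicle 0 higher, heart obesity 0 higher, heart empagliflozin 22 higher and 1 lower (median 0.31), heart combination 1 higher, and organ differences of 7 lower for obesity, 25 for empagliflozin (median -0.62) and 3 for the combination. Plate 2 alone gave kidney obesity and kidney empagliflozin 0 lower, kidney combination 1 higher against vehicle and 5 against empagliflozin, heart obesity and heart combination 0 higher, organ differences of 0 lower for all 3, and medians of -0.03 for heart empagliflozin, -0.11 for its organ difference and 0.19 for heart combination against empagliflozin. Each plate holds 5 libraries a group.

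Without libraries past a marker cutoff for another tissue or shallow, kidney empagliflozin had 1 lower, kidney combination 1 lower against vehicle and 8 higher against empagliflozin, heart obesity and heart combination 0 higher, and the organ differences 3 lower for obesity and 3 for the combination. The cutoffs used only Actc1 and Alb in kidney and Myl7 and Myh4 in heart. Kidney obese vehicle replicate 4 of study A, kidney lean replicate 2 and heart lean replicate 8 therefore stayed in. Without mitochondrially encoded genes, kidney empagliflozin had 5 lower, kidney combination against vehicle 1 lower and heart obesity 0 higher. Without the 3 kidney libraries absent from the deposited comparisons, kidney empagliflozin had 1 lower and the organ difference for obesity 5 lower. With the replicate number as a block, kidney obesity had 11 lower, kidney empagliflozin 0 lower, heart combination 7 higher, and the organ differences 8 lower for obesity and 5 for empagliflozin; the numbers do not pair the libraries. The causes of these moves were not tested.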
